A study of Mus musculus with 17 samples.

Results

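Tal1, Lyl1, Lmo2, Gata2 and Ldb1 encode the core of a transcription factor complex of blood stem and progenitor cells, and their loci were followed here for binding of RUNX1 and CHD7. A site was a stretch of the genome covered by at least 1 peak of any of 16 peak lists, with peaks that overlapped by at least 1 bp merged into 1 site. The sites of a gene were those that overlapped its mm10 gene body or the 50 kb on either side. By this rule the 5 genes, of 21887 protein-coding genes, held 91 of 90323 merged sites. RUNX1 was called at 36 of the 91 sites in at least 1 library and CHD7 at 87, and 32 sites carried both. Over all 90323 sites RUNX1 was called at 20991 and CHD7 at 84765. Sites of the genome with both proteins were not counted, so the 32 were not compared with a genome figure.

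The study used chromatin immunoprecipitation with sequencing to map 2 proteins in the mouse myeloid progenitor line 416B: RUNX1, a master transcription factor of blood, and CHD7, an ATP-driven enzyme that moves nucleosomes. Its question, as far as the title and labels state it, was how the 2 proteins share the genome in cells that express the leukaemia fusion CBFB-MYH11. There were 4 conditions with 2 replicate libraries per antibody in each, and each of the 16 libraries had its own peak list. The labels also name 1 IgG sample, which was not analysed here.

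CM +Dox cells carried the type A Cbfb-Myh11 cDNA, joined by an F2A element to mCherry, under a tetracycline-responsive element, and were given 1 µg/ml doxycycline for 24 hours. CM -Dox cells carried the same construct without the drug. Control +Dox cells carried the vector without the fusion and received the same doxycycline treatment, and Control -Dox cells carried that vector without the drug. All 4 conditions shared a second plasmid with the tetracycline silencer, the transactivator and a blasticidin resistance gene. The cells came from selected single-cell clones, and the labels do not say how many clones stood behind a condition or whether the replicates were separate cultures. The p-values below therefore reflect only how far these libraries varied, which may be a technical matter. A difference between CM and Control cells cannot be told apart from a difference between clones. Peak lists give no expression, so the markers of the line could not be checked.

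TAL1 and LYL1 are related basic helix-loop-helix factors that bind E-box sequences as partners of E proteins. LMO2 binds no DNA itself and bridges TAL1 or LYL1 to GATA2, while LDB1 binds LMO2 and can pair with itself, which joins distant elements. RUNX1 works with this complex at many stem cell enhancers, and it binds DNA best with its partner CBFB, the protein that the fusion alters in leukaemia with an inversion of chromosome 16.

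The sequences at the start of the genes are shown because RUNX1 was called over or beside them. RefSeq promoter entries on GRCm38.p6, the assembly that mm10 represents, were found for 4 of the 5 genes, and each spans 250 bases before to 50 bases after a transcript start. In the 3 printed here, read 5′ to 3′ along the gene, capitals mark matches on either strand to GATA (bound by GATA factors), CAGNTG (an E-box, bound by helix-loop-helix factors) and GGAAG (bound by ETS factors).
Lyl1 promoter, chr8:84701207-84701506, plus strand: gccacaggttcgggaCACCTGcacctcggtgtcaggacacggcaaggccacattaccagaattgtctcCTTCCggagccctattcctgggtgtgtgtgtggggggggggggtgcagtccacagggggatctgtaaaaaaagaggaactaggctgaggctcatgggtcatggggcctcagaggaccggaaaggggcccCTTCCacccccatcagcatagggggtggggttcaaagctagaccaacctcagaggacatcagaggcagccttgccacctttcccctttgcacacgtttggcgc
Ldb1 promoter, second entry, chr19:46039572-46039871, minus strand: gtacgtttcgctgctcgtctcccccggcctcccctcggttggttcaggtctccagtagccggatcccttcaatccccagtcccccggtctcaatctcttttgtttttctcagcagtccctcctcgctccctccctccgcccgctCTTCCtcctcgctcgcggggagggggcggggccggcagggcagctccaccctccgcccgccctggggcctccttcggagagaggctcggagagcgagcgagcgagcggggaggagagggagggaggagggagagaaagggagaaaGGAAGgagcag
Tal1 promoter, first entry, chr4:115056176-115056475, plus strand: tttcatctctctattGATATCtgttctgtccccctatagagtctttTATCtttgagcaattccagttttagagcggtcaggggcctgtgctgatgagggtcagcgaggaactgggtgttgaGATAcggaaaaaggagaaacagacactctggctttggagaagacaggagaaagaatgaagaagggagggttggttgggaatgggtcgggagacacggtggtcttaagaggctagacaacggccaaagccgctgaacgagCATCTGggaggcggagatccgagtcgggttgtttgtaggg
The Lyl1 stretch lay wholly within a site with RUNX1 in all 8 RUNX1 libraries and CHD7 in 2 of 8. It held 1 E-box and 2 ETS matches and no GATA match. The Ldb1 stretch lay within a site with RUNX1 in 5 of 8 libraries and CHD7 in 3, and it held 2 ETS matches. The Tal1 stretch held 4 GATA matches, of which 2 overlap in the run GATATC, and 1 E-box. Its only overlapping site was called by CHD7 in 1 library, and the Tal1 site with RUNX1 in 7 libraries began just downstream of it. The RUNX letters TGTGGT and TGCGGT were searched as well and occurred in none of the 8 entries of the 4 genes, which says only that these letters are not in these windows. Of 32851 promoter entries of the mouse table, 16.8% held TGTGGT, 6.45% TGCGGT, 57.9% GATA, 51.4% CAGNTG and 71.4% GGAAG.

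Lists differed in length, and this bears on every count below. The RUNX1 lists held 8140 and 9710 peaks in CM +Dox, against 12603 to 16163 in the other 6 libraries. The CHD7 lists held 33462 and 31688 peaks in CM +Dox, against 16323 to 37698 in the other 6. Within each condition replicate 2 of CHD7 was the longer list except in CM +Dox. The lowest −log10 p-value in a list lay near 9 in 5 RUNX1 lists, near 7 in the other 3 and near 2 in all CHD7 lists, so the thresholds differed between RUNX1 lists. In Control -Dox RUNX1 replicate 1 the peaks are named with a +Dox tag, and the label was kept; without that library the counts of RUNX1 sites at the 5 genes given below as 3, 0 and 7 came out the same. Read depth is unknown. Ranks below are percentile ranks of a peak's −log10 p-value, as the authors deposited it, within its own list, with 100 the strongest. Ranks describe a list and show no change between lists of different lengths.

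At the 5 genes together, the libraries with induced fusion held fewer RUNX1 sites than each of the other 6. CM +Dox replicates 1 and 2 called 11 and 15 of the 91 sites with RUNX1, CM -Dox 23 and 28, Control +Dox 23 and 20, and Control -Dox 23 and 17. The mean was 13 ± 2.83 in CM +Dox (SD, n = 2) and 22.3 ± 3.67 in the other libraries (SD, n = 6), a ratio of 0.582. Over all sites of the genome the same ratio was 0.641. With every list shortened to its strongest 8140 peaks, the ratio at the 5 genes was 0.885.

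**Figure D1:**
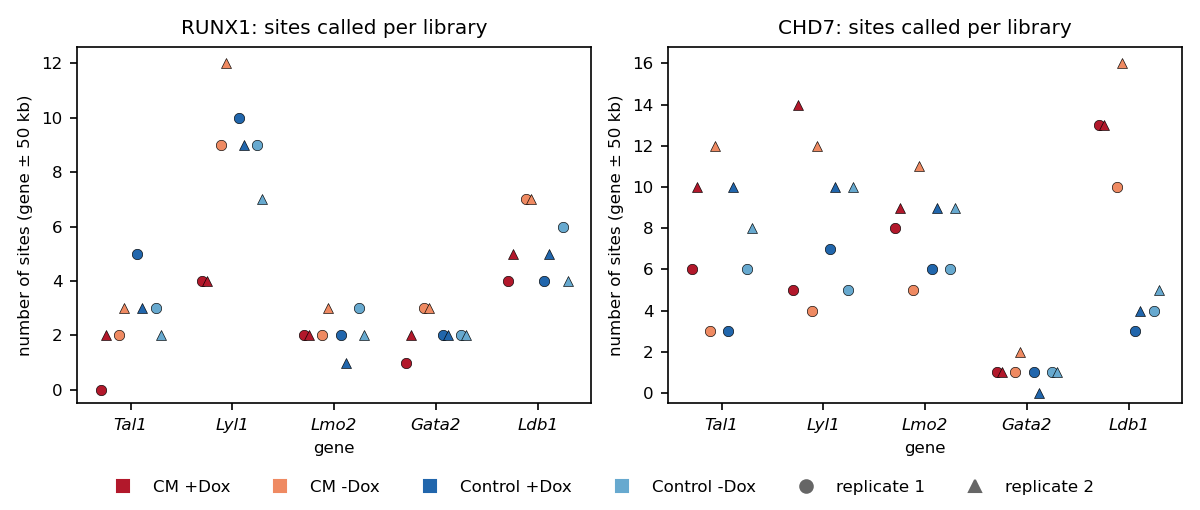
Number of sites (vertical axis) called in each library by RUNX1 (left) and CHD7 (right) in the gene body or 50 kb either side of each of the 5 genes; colour gives the condition and shape the replicate. At Lyl1 both CM +Dox libraries hold 4 RUNX1 sites, below the 7 to 12 of the other 6, and at Ldb1 the 4 CM libraries hold 10 to 16 CHD7 sites, above the 3 to 5 of the control libraries.

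RUNX1 was called in all 6 libraries without induced fusion at 13 of the 36 sites, and over the genome at 40.2% of 20991. From the 13, CM +Dox lacked 3 in both libraries (23.1%, against 27.7% of the 8436 such sites of the genome), and all 3 lay at Lyl1. Another 3 were called in 1 of the CM +Dox libraries (15.3% of the 8436), each time replicate 2, and they lay at Tal1, Gata2 and Ldb1. The remaining 7 were called in both (56.9% of the 8436), 3 at Lyl1, 1 at Lmo2, 1 at Gata2 and 2 at Ldb1. No site at the 5 genes had RUNX1 in CM +Dox replicates 1 and 2 but in none of the other 6 (0.838% of 20991 RUNX1 sites did). The share called in neither CM +Dox library was thus near that of the whole genome. With CM +Dox replicate 2 left out, the count of sites absent from CM +Dox was 6. A two-sided exact permutation test of the call at each site, over the 28 choices of 2 libraries of 8, could not go below p = 0.0357. After Benjamini-Hochberg adjustment over 20991 sites it left no site below 0.05 anywhere, with 2516 sites below 0.05 before adjustment and a lowest adjusted p of 0.298.

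**Figure D2:**
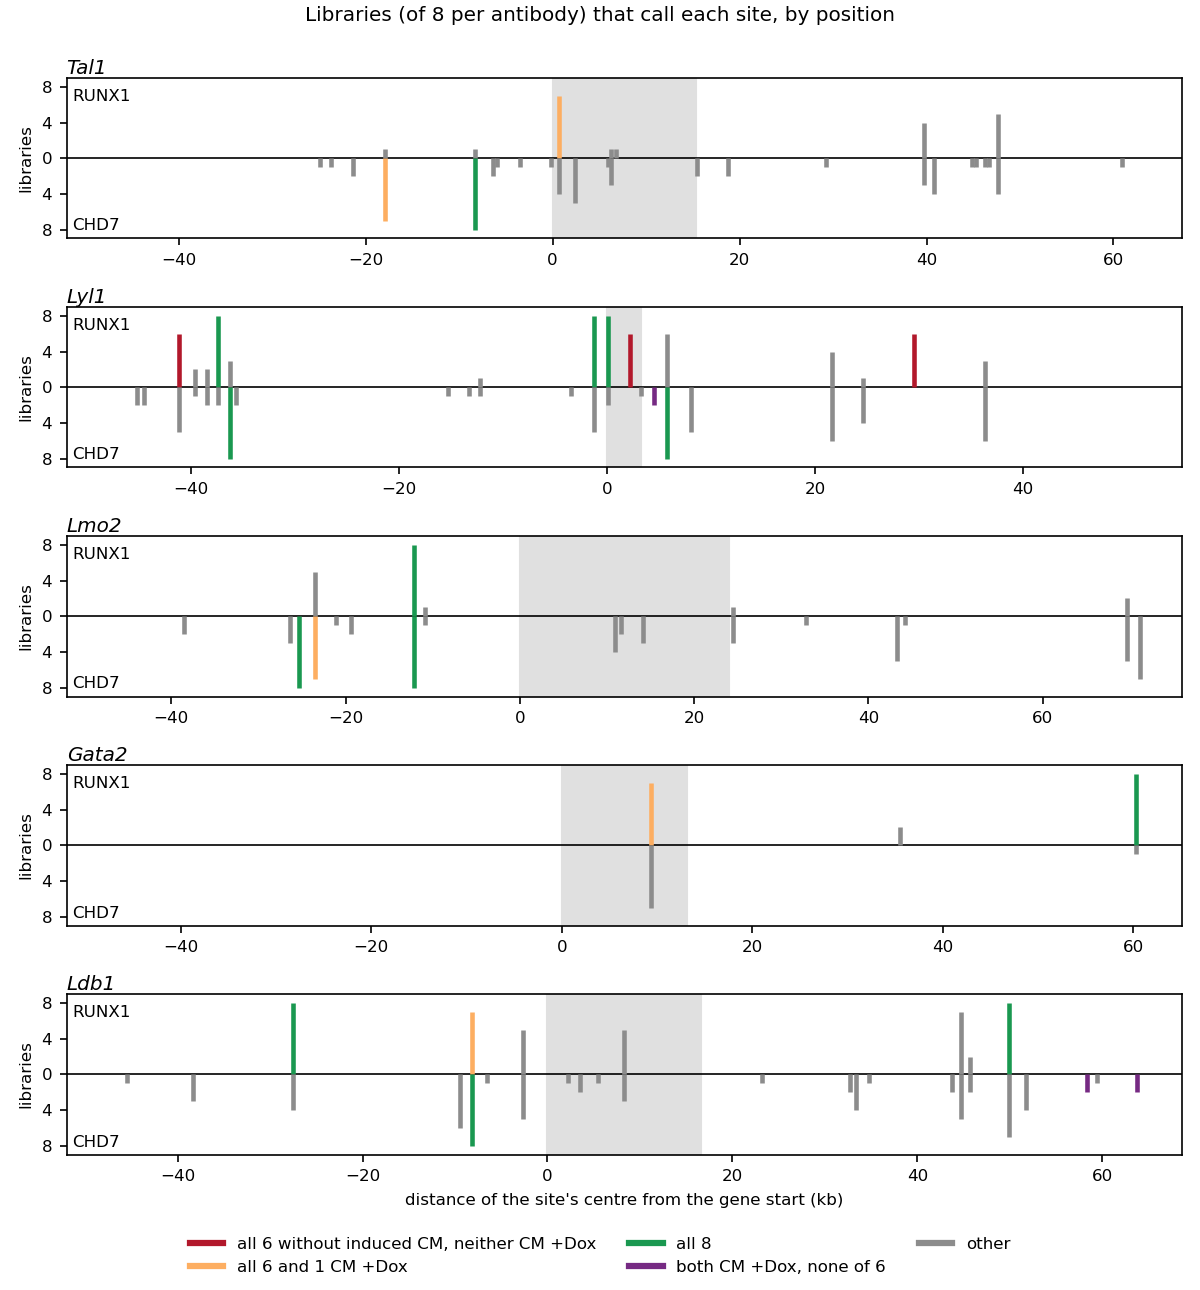
Position of the 91 sites along the 5 loci: the horizontal axis is the distance of a site's centre from the gene start in kb, along the gene's direction, with the gene body shaded. Bars upward count RUNX1 libraries and bars downward CHD7 libraries that call the site, of 8 each; red marks the 3 Lyl1 sites called by RUNX1 in all 6 libraries without induced fusion and in neither CM +Dox library.

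Lyl1, on chromosome 8, had the most RUNX1 sites of the 5 genes, 14, and it was the gene where both CM +Dox libraries lay below all of the other 6. CM +Dox called 4 and 4 RUNX1 sites, CM -Dox 9 and 12, Control +Dox 10 and 9, and Control -Dox 9 and 7. The CM +Dox mean differed by -5.33 sites from that of the other 6 (exact permutation p = 0.0357, the smallest possible; adjusted p = 0.214 over 14879 genes with a RUNX1 site). Both CM +Dox counts lay below all other counts at 19.5% of those genes, so this ordering was common. With CM +Dox replicate 1 or replicate 2 left out the difference was again -5.33. The exact permutation p was then 0.143, the smallest possible with 1 library against 6. With windows of 20 kb the difference was -1.5 and the exact permutation p was 0.179. No gene passed 0.05 after adjustment, while 2478 did before it.

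The Lyl1 site that ranked high wherever it was called lay within the gene, at chr8:84703390-84703849, from 1.97 to 2.43 kb past the gene start. RUNX1 was absent from both CM +Dox lists there. Its rank was 95.7 and 94.1 in CM -Dox, 95.4 and 93.1 in Control +Dox, and 96.4 and 94.2 in Control -Dox. The deposited −log10 p-values in those lists were 130.5 and 132 in CM -Dox, 133 and 91.9 in Control +Dox, and 141 and 107 in Control -Dox, all far above the thresholds of the lists. CHD7 was called there in none of its 8 libraries. The call pattern had an exact permutation p of 0.0357 and an adjusted p of 0.298. Of the 3 Lyl1 sites absent from CM +Dox, this was the one that kept that pattern when every list was cut to 8140 peaks.

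The other two sites absent from CM +Dox ranked lower and lay nearer to other genes. The site at chr8:84659842-84660650, at -41.58 to -40.77 kb from the start of Lyl1, lay 0.68 kb from Ier2, an immediate early gene. RUNX1 ranked there at 16.6 and 25.1 in CM -Dox, 26.0 and 45.4 in Control +Dox, and 52.9 and 57.9 in Control -Dox. CHD7 was called there in 5 libraries, among them CM +Dox replicate 2. The site at chr8:84730803-84731109 lay in the body of Nfix, which encodes a nuclear factor I protein, 29.38 kb past the start of Lyl1. RUNX1 ranked there at 47.0 and 46.1 in CM -Dox, 55.6 and 60.5 in Control +Dox, and 58.3 and 72.5 in Control -Dox, and CHD7 was called in no library. With equal list lengths the Ier2 site was called in 3 and the Nfix site in 5 of the 6 libraries without induced fusion.

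RUNX1 was called in all 8 libraries at 3 Lyl1 sites. The site between Trmt1 and Lyl1, at chr8:84699813-84700410, had the highest mean RUNX1 rank of all sites at the 5 genes. It ranked at 92.5 and 93.3 in CM +Dox, 88.0 and 88.0 in CM -Dox, 81.4 and 82.0 in Control +Dox, and 86.6 and 88.0 in Control -Dox. At the promoter site, chr8:84701122-84701906, which holds the Lyl1 sequence printed above, the ranks were 42.3 and 63.9 in CM +Dox, 79.1 and 86.4 in CM -Dox, 91.5 and 85.9 in Control +Dox, and 89.4 and 87.0 in Control -Dox. The CM +Dox ranks at the promoter were the lowest of the 8, and those at the upstream site were the highest. How many sites of the genome have either ordering was not counted, and ranks in lists of different lengths show no change. At the third, chr8:84663772-84664233 beside Ier2, the ranks were 13.8 and 55.6 in CM +Dox, 67.5 and 69.3 in CM -Dox, 72.7 and 81.3 in Control +Dox, and 79.9 and 75.1 in Control -Dox. With induced fusion RUNX1 was thus listed at these 3 sites, among them the promoter of Lyl1, and not at the site in the gene body. Nor was RUNX1 listed in either CM +Dox library at the upstream site described above, -41.58 to -40.77 kb from the gene start. A further site in Nfix, chr8:84706270-84708160, had RUNX1 in both CM +Dox libraries, at low ranks of 5.3 and 11.0, and in 4 of the other 6.

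**Figure D3:**
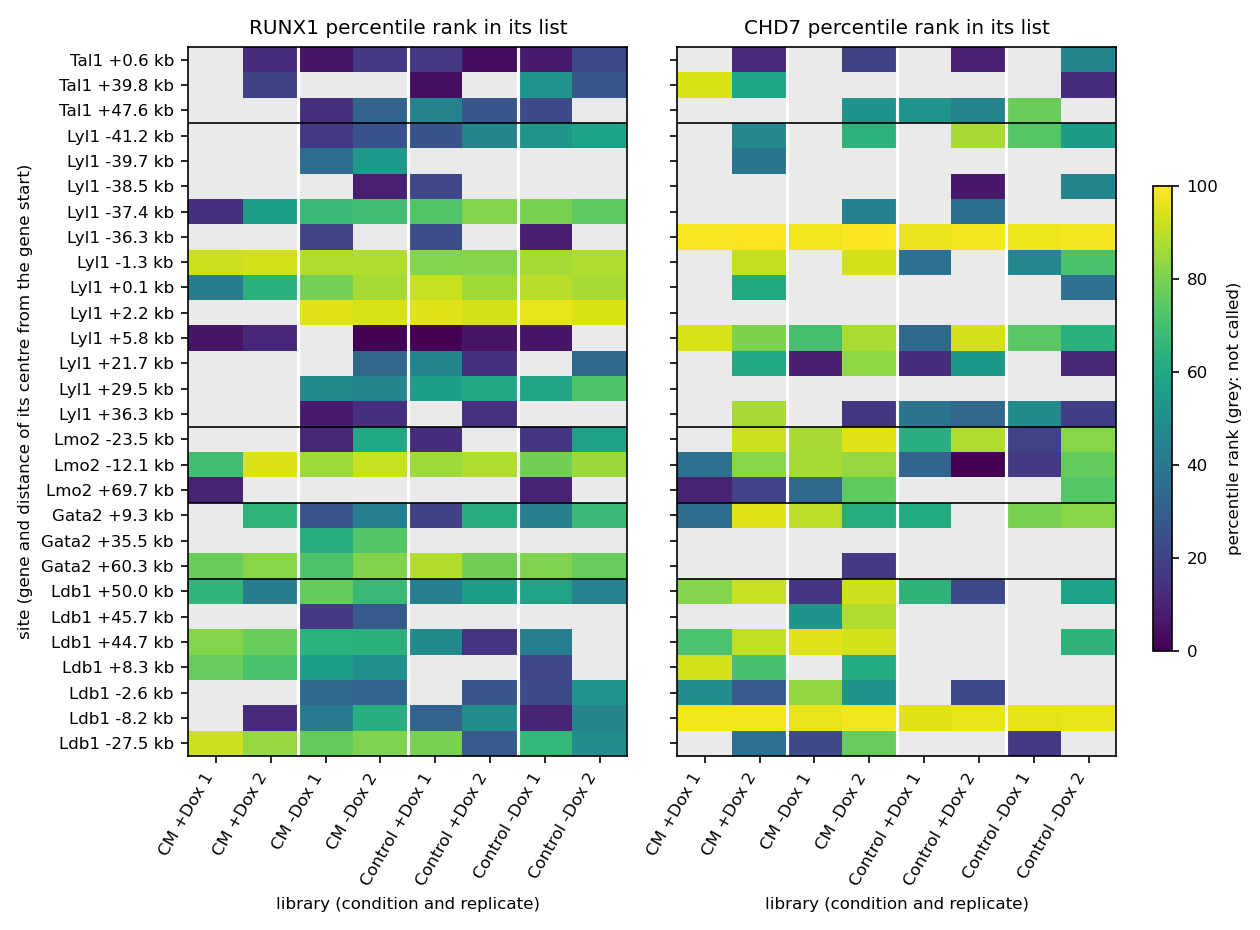
Percentile rank of the RUNX1 peak (left) and the CHD7 peak (right) in its own list, by library (columns) and site (rows), for the 28 sites with RUNX1 in at least 2 libraries; grey means not called. At the Lyl1 site centred 2.2 kb past the start, RUNX1 ranks lie between 93.1 and 96.4 in 6 libraries, and both CM +Dox cells are grey.

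Tal1, on chromosome 4, had 7 RUNX1 sites, whose highest rank in any library was 51.97. CM +Dox called 0 and 2 of them, CM -Dox 2 and 3, Control +Dox 5 and 3, and Control -Dox 3 and 2. The difference was -2 sites (exact permutation p = 0.214, adjusted p = 0.622). CM +Dox replicate 1 lay below each of the other 6 libraries, and CM +Dox replicate 2 matched the lowest of them. The site at chr4:115056628-115057490, from 0.2 to 1.06 kb past the gene start, was called in all libraries but CM +Dox replicate 1. It ranked at 12.6 in CM +Dox replicate 2, 5.3 and 16.8 in CM -Dox, 17.1 and 3.2 in Control +Dox, and 7.1 and 22.3 in Control -Dox. The site thus stood low in each of these lists. Enhancers downstream of Tal1, beyond Pdzk1ip1, are known in the mouse from work on red cells. A site there, chr4:115095803-115096586, from 39.38 to 40.16 kb past the gene start, had RUNX1 in CM +Dox replicate 2 (rank 19.2), Control +Dox replicate 1 (3.5) and both Control -Dox libraries (51.97 and 27.2). The neighbouring site at chr4:115103554-115104481, 1.84 kb from Cyp4x1, had RUNX1 in both CM -Dox libraries (ranks 13.5 and 31.8), both Control +Dox libraries (44.7 and 26.6) and Control -Dox replicate 1 (22.2), and in neither CM +Dox library.

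Lmo2, on chromosome 2, held the only site of the 91 that was called in all 16 libraries (1.89% of all 90323 sites were). It spanned chr2:103944927-103946611, at -12.98 to -11.29 kb from the gene start, outside any gene. RUNX1 ranked there at 69.4 and 94.8 in CM +Dox, 85.4 and 91.5 in CM -Dox, 85.5 and 88.1 in Control +Dox, and 78.5 and 84.9 in Control -Dox. CHD7 ranked at 37.2 and 82.3 in CM +Dox, 86.4 and 84.2 in CM -Dox, 32.7 and 0.4 in Control +Dox, and 16.9 and 76.2 in Control -Dox. RUNX1 thus ranked at 69.4 or above in every list at this site, while CHD7 ran from 0.4 to 86.4 with replicates of 3 conditions far apart. Upstream of it, chr2:103933351-103935376 had RUNX1 in neither CM +Dox library, in both CM -Dox libraries (10.6 and 59.7), in Control +Dox replicate 1 (13.3) and in both Control -Dox libraries (15.2 and 57.1). CHD7 was called there in every library but CM +Dox replicate 1. The third Lmo2 site by RUNX1 rank, chr2:103946804-103947243, was called by RUNX1 in 1 library. Over the whole locus RUNX1 was called at 2 and 2 sites in CM +Dox, 2 and 3 in CM -Dox, 2 and 1 in Control +Dox, and 3 and 2 in Control -Dox, a difference of -0.167 (exact permutation p = 1).

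Gata2, on chromosome 6, had 3 sites in all. The site within the gene, chr6:88203016-88203448, from 9.12 to 9.56 kb past the gene start, had both proteins. RUNX1 was absent from CM +Dox replicate 1 and ranked at 65.3 in CM +Dox replicate 2, 26.7 and 43.3 in CM -Dox, 19.4 and 62.3 in Control +Dox, and 43.6 and 67.9 in Control -Dox. CHD7 ranked there at 35.3 and 95.6 in CM +Dox, 90.0 and 62.3 in CM -Dox, 61.5 in Control +Dox replicate 1, and 79.7 and 82.3 in Control -Dox, and it was absent from Control +Dox replicate 2. An enhancer within a Gata2 intron is known to be needed for stem cell emergence in the mouse embryo; whether this site is that element was not tested. The site from 60.1 to 60.54 kb past the gene start, chr6:88253996-88254426 and 2.91 kb from Eefsec, had RUNX1 in all 8 libraries. Its ranks were 77.1 and 82.2 in CM +Dox, 72.0 and 81.0 in CM -Dox, 88.4 and 78.3 in Control +Dox, and 80.8 and 76.9 in Control -Dox, so the conditions overlapped. The site between them, chr6:88229296-88229592, had RUNX1 in both CM -Dox libraries (63.1 and 73.4) and in no other library, and no CHD7. Across the locus the difference in RUNX1 sites was -0.833 (exact permutation p = 0.214; adjusted p = 0.622).

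Ldb1 lies on chromosome 19, and 4 of its 7 RUNX1 sites lay over promoters of neighbouring genes. CM +Dox called 4 and 5 RUNX1 sites, CM -Dox 7 and 7, Control +Dox 4 and 5, and Control -Dox 6 and 4, a difference of -1 (exact permutation p = 0.571; adjusted p = 0.983). The site at chr19:46075222-46076084, over the promoter of Nolc1, which encodes a nucleolar phosphoprotein, had RUNX1 in all 8 libraries. It ranked at 92.2 and 84.4 in CM +Dox, 76.4 and 80.5 in CM -Dox, 79.8 and 28.9 in Control +Dox, and 66.8 and 49.1 in Control -Dox. The site at chr19:45996926-45999467, over the promoter of Armh3, also had RUNX1 in all 8, with ranks of 65.8 and 42.3 in CM +Dox, 76.4 and 67.4 in CM -Dox, 43.1 and 55.6 in Control +Dox, and 58.5 and 44.4 in Control -Dox. At the site over the promoter of Hps6, chr19:46002936-46003875, RUNX1 ranked at 81.3 and 77.6 in CM +Dox, 64.6 and 64.2 in CM -Dox, and 47.3 and 14.8 in Control +Dox, and in Control -Dox it was called in replicate 1 only, at 43.2. At the second Ldb1 promoter entry printed above, chr19:46039542-46040091, RUNX1 ranked at 76.9 and 71.2 in CM +Dox, 56.1 and 50.5 in CM -Dox, and 21.8 in Control -Dox replicate 1, and it was absent from the other 3 control libraries. At both of these sites the 4 CM libraries ranked above every control library that called the site, with and without doxycycline. How many sites of the genome have this ordering was not counted, and these ranks come from lists of different lengths. The site at the promoter of Pprc1, chr19:46055619-46057004, was the one absent from CM +Dox replicate 1 only, at 12.5 in replicate 2, 41.2 and 63.1 in CM -Dox, 31.4 and 49.3 in Control +Dox, and 9.9 and 45.4 in Control -Dox.

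Chromosome 19 took a larger share of the peaks in CM than in Control libraries. The CHD7 counts at Ldb1, given below, were likewise higher in the 4 CM libraries, while its RUNX1 counts overlapped between CM and Control libraries. The share was 4.57% to 5.22% of RUNX1 peaks in the 4 CM libraries and 2.83% to 3.18% in the 4 Control libraries. For CHD7 it was 7.85% to 8.29% in CM and 2.27% to 2.86% in Control libraries. On chromosome 8, which holds Lyl1, RUNX1 shares were 4.89% to 5.14% in CM and 4.98% to 5.20% in Control libraries, so the groups overlapped there. The part of the chromosome 19 share in the Ldb1 results was not tested.

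**Figure D4:**
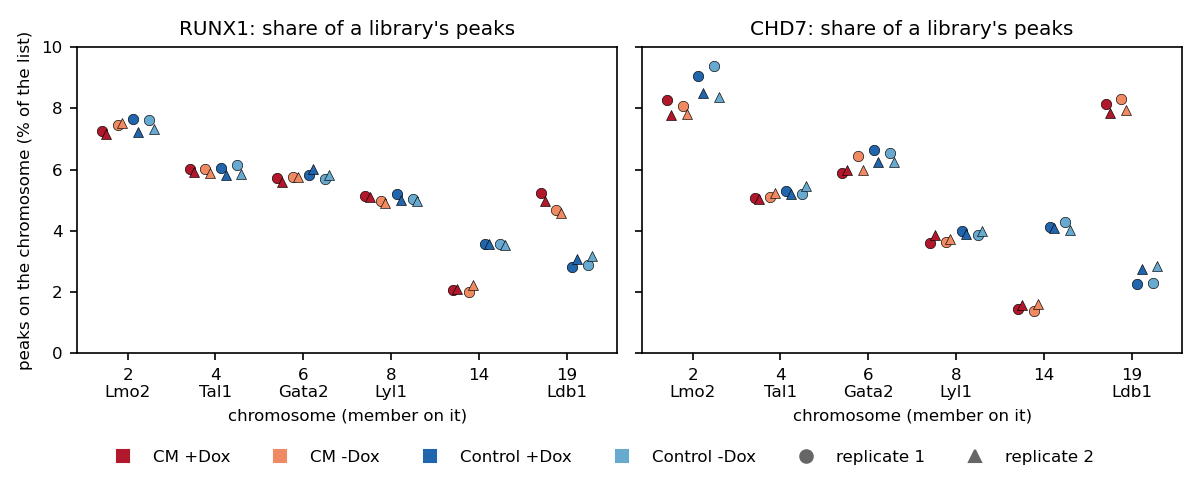
Share of each library's peaks (vertical axis, % of the list) on the chromosomes of the 5 genes and on chromosome 14, for RUNX1 (left) and CHD7 (right); colour gives the condition and shape the replicate. The 4 CM libraries lie above the 4 Control libraries on chromosome 19 and below them on chromosome 14, for both proteins.

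CHD7 was called at more sites of the 5 genes than RUNX1, and the counts with induced fusion lay within the range of the other libraries. CM +Dox called 33 and 47 sites with CHD7, CM -Dox 23 and 53, Control +Dox 20 and 33, and Control -Dox 22 and 33, so both CM +Dox values lay between the lowest and the highest of the other 6. The means were 40 ± 9.90 in CM +Dox (SD, n = 2) and 30.7 ± 12.3 in the other libraries (SD, n = 6), a ratio of 1.30, against 1.38 over all sites. By gene the CM +Dox mean differed by 1 site at Tal1, 1.5 at Lyl1, 0.833 at Lmo2, 0 at Gata2 and 6 at Ldb1, so none was below 0. With every CHD7 list cut to 16323 peaks the ratio was 0.828, so the direction of the ratio depended on list length. CHD7 was called in all 6 libraries without induced fusion at 8 of the 87 sites (6.82% of 84765 over the genome). None of the 8 was absent from both CM +Dox libraries (3.65% of 5781 such sites of the genome were), 2 were called in 1 of them (12.3%) and 6 in both (84.1%). At single sites the exact permutation test of CHD7 calls left none below 0.05 after adjustment over 84765 sites, with 1389 below 0.05 before adjustment.

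At 3 sites, beside Tal1, Lyl1 and Ldb1, CHD7 ranked high in all 8 libraries, while RUNX1 was called in fewer libraries and ranked lower in its lists. At chr4:115047602-115048528, at -8.82 to -7.9 kb from the start of Tal1, CHD7 ranked at 88.3 and 98.0 in CM +Dox, 86.7 and 97.7 in CM -Dox, 95.5 and 97.3 in Control +Dox, and 96.0 and 96.3 in Control -Dox. RUNX1 was called there in 1 library, at 3.1. At chr8:84664834-84665407, 1.98 kb from Ier2, CHD7 ranked between 97.1 and 99.3 in all 8 libraries, and RUNX1 was called in 3 of the 6 libraries without induced fusion at 8.3 to 23.9. At the Pprc1 promoter site beside Ldb1, described above for RUNX1 in 7 libraries at 9.9 to 63.1, CHD7 ranked between 95.1 and 98.4 in all 8. These 3 sites were chosen for mention after their values were seen, and how many sites of the genome are like them was not counted.

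CHD7 was called in CM +Dox replicates 1 and 2 and in no other library at 3 sites (1.39% of 84765 CHD7 sites). At Lyl1 the site was chr8:84705662-84706186 in Nfix, with ranks of 72.8 and 41.7. At Ldb1 the sites were chr19:45984227-45984653 (72.2 and 5.7) and chr19:45989651-45989889 (49.7 and 28.7), both in Armh3. RUNX1 was called at none of the 3. Cutting the lists to equal length, or to peaks above the median score, gave 1 such site, which was none of these 3. The count was 9 without CM +Dox replicate 1 or without CM +Dox replicate 2, and 5 without CM -Dox replicate 2.

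The CHD7 counts at single genes overlapped between CM +Dox and the other libraries at all 5 genes. At Tal1 they were 6 and 10 in CM +Dox, 3 and 12 in CM -Dox, 3 and 10 in Control +Dox, and 6 and 8 in Control -Dox. At Lyl1 they were 5 and 14 in CM +Dox, 4 and 12 in CM -Dox, 7 and 10 in Control +Dox, and 5 and 10 in Control -Dox. Replicate 2 was higher than replicate 1 in every one of these pairs, as were most replicate 2 list lengths. At Lmo2 the counts were 8 and 9 in CM +Dox and 5 to 11 in the other 6, and at Gata2 they were 1 and 1 in CM +Dox and 0 to 2 in the other 6. At none of the 5 did both CM +Dox counts lie below (0.358% of 17895 genes) or above (4.49%) all of the other 6. The exact permutation p-values of the differences at Tal1, Lyl1, Lmo2 and Gata2 lay between 0.643 and 1, and the adjusted p was 1 for each.

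Ldb1 was the gene whose CHD7 counts separated the CM from the Control cells. CHD7 was called at 13 and 13 sites in CM +Dox, 10 and 16 in CM -Dox, 3 and 4 in Control +Dox, and 4 and 5 in Control -Dox. All 4 CM counts lay above all 4 Control counts, which held for 3.03% of 17895 genes with a CHD7 site. On chromosome 19 it held for 45.6% of 649 genes and elsewhere for 1.43% of 17246. CHD7 was called in all 4 CM libraries and no Control library at 1 of the Ldb1 sites, chr19:45995945-45996814 in Armh3 (0.584% of all CHD7 sites). RUNX1 had no site of that kind at the 5 genes (0.443% of all RUNX1 sites) and no gene of the 5 with all 4 CM counts above all 4 Control counts (0.968% of genes with a RUNX1 site, 11.1% on chromosome 19 and 0.573% elsewhere). Set against the other 6 libraries, the CM +Dox counts differed by 6 sites (exact permutation p = 0.286; adjusted p = 1).

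RUNX1 sites with CHD7 in some library were common at the 5 genes and over the whole genome. Of the 13 sites with RUNX1 in all 6 libraries without induced fusion, all but 2 had CHD7 in at least 1 library, and 84.8% of the 8436 such sites of the genome did. The 2 exceptions were the Lyl1 sites in the gene body and in Nfix, both absent from CM +Dox. Over the genome 26.5% of the 2340 RUNX1 sites absent from CM +Dox had no CHD7 in any library. Of the 91 sites, 17 lay in the body of 1 of the 5 genes, 32 in the body of another gene and 42 outside genes. The median width was 450 bp, with a range of 200 to 2542 bp, and 27 sites were called in a single library of the 16.

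Set side by side, the pairs of conditions gave the following counts of sites called in both replicates; the pairs share libraries, and with 2 libraries against 2 no exact test can go below p = 0.333. RUNX1 was called in both replicates at 10 sites in CM +Dox, 22 in CM -Dox, 17 in Control +Dox and 16 in Control -Dox. Over all sites of the genome these counts were 6771, 12087, 10298 and 11282, in the same order. Of the 22 sites in CM -Dox, 10 were called in neither CM +Dox library (35% over all sites), 5 of them at Lyl1, 2 at Ldb1 and 1 each at Tal1, Lmo2 and Gata2, and none of the 10 in CM +Dox was called in neither CM -Dox library (6.01%). Of the 17 sites in Control +Dox, 5 were called in neither CM +Dox library (34.8% over all sites), 4 at Lyl1 and 1 at Tal1, and 1 of the 10 in CM +Dox was called in neither Control +Dox library (8.85%). In the uninduced cells, 4 of the 22 CM -Dox sites were called in neither Control -Dox library (9.36% over all sites), and 1 of the 16 Control -Dox sites in neither CM -Dox library (7.01%). Between the Control conditions no RUNX1 site was called in both Control +Dox libraries and neither Control -Dox library (1.28% over all sites) or the other way round (3.08%). For CHD7 the counts were 21 in CM +Dox, 21 in CM -Dox, 15 in Control +Dox and 15 in Control -Dox. Over all sites of the genome they were 14291, 13070, 9883 and 10402, in the same order. Of the sites at the 5 genes, Ldb1 held 9 in CM +Dox, 10 in CM -Dox, 2 in Control +Dox and 1 in Control -Dox. Chromosome 19, which holds Ldb1, took a larger share of CHD7 peaks in CM than in Control libraries, as given above. Of the 21 CHD7 sites in CM +Dox, 4 were called in neither CM -Dox library (15.1% over all sites) and 9 in neither Control +Dox library (27.3%), of which 5 lay at Ldb1. The other way round, 2 of the 21 in CM -Dox (10.8%) and 2 of the 15 in Control +Dox (12.5%) were missing from both CM +Dox lists. In the uninduced cells 4 of the 21 CM -Dox sites, all at Ldb1, were called in neither Control -Dox library (18.8%), and 1 of the 15 Control -Dox sites in neither CM -Dox library (8.91%). Between the Control conditions the count was 1 of the 15 Control +Dox sites (9.45%) and 1 of the 15 Control -Dox sites (9.72%).

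The wider pathway was described with 24 other genes, counted over the same windows: 12 partners of the complex, 3 factors that bind with it and 9 known targets. These held 72 sites with RUNX1 in all 6 libraries without induced fusion. Of these, 16 were absent from both CM +Dox libraries (22.2%, near the 27.7% of the genome), 9 were called in 1 of them and 47 in both. RUNX1 had a site at 22 of the 24 genes. At 9 of the 22 both CM +Dox counts lay below all of the other 6 (19.5% of the 14879 genes with a RUNX1 site), and at 1, Tcf3, an E protein partner of TAL1, both lay above (0.645%). None of the 22 passed 0.05 after adjustment over all genes.

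Runx1 itself had 3 of the 16 sites, and its window held 6 and 7 RUNX1 sites in CM +Dox, 10 and 13 in CM -Dox, 11 and 11 in Control +Dox, and 12 and 13 in Control -Dox. Zfpm1, which encodes the GATA cofactor FOG1, had 2, with 7 and 7 RUNX1 sites in CM +Dox and 9 to 11 in the other 6. Single sites of the kind lay at Cbfa2t2 (an ETO family corepressor), Eng (endoglin), Gfi1b (a repressor of the red cell and platelet lineages), Hba-a1 (alpha globin), Kit (the stem cell factor receptor), Klf1 (a red cell factor), Nfe2 (a globin locus and platelet factor) and Ssbp2 (an LDB1 stabiliser). The remaining sites of the 16 lay at genes left unnamed under the limit of 10 names. Kit had 1 RUNX1 site in its window, called in none of the CM +Dox libraries and all of the other 6. For CHD7, 33 sites of the 24 genes were called in all 6 libraries without induced fusion. Of these, 2, both at Runx1, were absent from both CM +Dox libraries (6.06%, against 3.65% of the 5781 such sites of the genome). Hhex, a homeobox gene that like Ldb1 lies on chromosome 19, had 16 and 15 CHD7 sites in CM +Dox, 7 and 14 in CM -Dox, 1 and 3 in Control +Dox, and 3 and 3 in Control -Dox.

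The genes whose best ranks over the 16 libraries were nearest to each member's, by Euclidean distance among 21861 genes, were Adap2 and Rhot1 for Tal1 (25.1 each), Rpl37rt and Ggt1 for Lyl1 (4.54 and 5.70), Ccdc62 and Dusp4 for Lmo2 (26.9 and 28.9), Chid1 and Cfap20 for Gata2 (60.7 and 63.6), and Sin3a and Rassf3 for Ldb1 (20.5 and 20.9). Adap2 and Rhot1 had the same 16 best ranks. The best RUNX1 rank in the Lyl1 window was 92.5 and 93.3 in CM +Dox and 93.1 to 96.4 in the other 6, and the best CHD7 rank lay at 97.1 to 99.3 in all 8. For Gata2 the best RUNX1 rank was 77.1 and 82.2 in CM +Dox and 72.0 to 88.4 in the other 6. By its best peak, then, no locus but Tal1 went without RUNX1 in a CM +Dox library, and that was replicate 1.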

How the data were processed

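RUNX1 and CHD7 were immunoprecipitated from crosslinked, sonicated 416B chromatin and sequenced, per the labels' protocols. Tools were Bowtie2 2.0.6 and MACS2 2.0.10 with mm10, per the submitters' processing notes; the control library, read filters and read depth are unknown here. Each library has 1 list, which gives per peak the −log10 p-value that the authors deposited; its lowest values show thresholds of 1e-09 in 5 RUNX1 lists, 1e-07 in 3 and 0.01 in the 8 CHD7 lists. The lists hold no read counts, so no count model was used, and calls in libraries were the replicate values.

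Peaks of the 19 autosomes, X and Y were merged at 1 bp overlap, and gene bodies came from the RefSeq table of GRCm38.p6. Calls at all sites and site numbers at all protein-coding genes were tested by two-sided exact permutation over 28 choices of 2 libraries of 8, with Benjamini-Hochberg adjustment over every site or gene with a site; the scripts were tested on simulated calls. The named sites were those absent from both CM +Dox libraries, or called in both and no other, those in all 16 lists and the 3 highest in mean RUNX1 rank per gene. From the 24 pathway genes at most 10 with such a RUNX1 site were named, by number and then name. The members and lists were chosen with earlier results of these data known. Alternatives were equal list lengths, a common threshold, peaks above the median score, other overlaps and windows, single libraries left out and the replicate number as a block. Python 3.11.15, numpy 2.4.6, pandas 2.3.3 and matplotlib 3.10.9 were used.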

Additional observations from a re-analysis of the deposited data

How the results depend on the processing

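Over all alternatives for the counts and ratios of the 5 genes together, 119 values stayed near the one reported by a wide rule, 24 moved and 1 reversed. A ratio counted as near if it stayed on the same side of 1 and within the SD of the ratio. That SD was 0.159 for RUNX1 and 0.615 for CHD7. A count was near if it lay within a fixed factor of the one reported. The 3 RUNX1 sites absent from CM +Dox came to 1 with equal list lengths and 1 with windows of 20 kb, and the 7 in all 8 libraries to 3 above the median score and 3 with 20 kb. The RUNX1 ratio of 0.582 came to 0.885 with equal lists, and the CHD7 ratio of 1.30 to 0.828, a reversal; a shorter list holds fewer sites by construction. The 3 CHD7 sites called in CM +Dox and no other library came to 1 with equal lists, 1 above the median score, 1 with 20 kb and 1 without Ldb1, the last chosen after seeing the data; the 6 in all 8 libraries came to 3 above the median score.

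Leaving out single libraries gave 3 to 6 RUNX1 sites absent from CM +Dox (6 without CM +Dox replicate 2), 0 to 1 in CM +Dox and no other library (1 without CM +Dox replicate 1), 7 to 10 in all libraries left and ratios of 0.493 to 0.672. For CHD7 it gave 0 to 2 absent (2 without CM +Dox replicate 2), 3 to 9 in CM +Dox and no other library (9 without either CM +Dox library, 5 without CM -Dox replicate 2), 6 to 8 in all libraries left and ratios of 1.08 to 1.53. The Lyl1 difference in RUNX1 sites stayed below 0 in all 18 alternatives, -6.33 to -1.5, with exact permutation p from 0.0357 to 0.179; it was 0.143 without either CM +Dox library, where 0.143 is the smallest possible.

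Differences in sites per gene changed sign 14 times, none with an exact permutation p below 0.05 where one was computed. With equal lists RUNX1 came to 0.167 at Tal1, 0.5 at Lmo2 and 0.333 at Ldb1, and CHD7 to -1.67 at Tal1, -0.5 at Lyl1 and -2.83 at Lmo2. Above the median score RUNX1 came to 1.33 at Ldb1 and CHD7 to -1.67 at Tal1. For Lmo2, RUNX1 came to 0.333 with 20 kb and 0.167 with 100 kb, and without CM +Dox replicate 2, CHD7 came to -1 at Tal1 and -3 at Lyl1. At 100 kb the RUNX1 difference at Tal1 was -4.33 (exact permutation p = 0.0357), and without CM -Dox replicate 2 the CHD7 difference at Ldb1 was 7.8 (exact permutation p = 0.0476).

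The conditions share replicate numbers, but same-numbered libraries deviated together only weakly, with correlations of 0.020 to 0.220 for RUNX1 and -0.095 to 0.068 for CHD7, so the numbers were not taken to pair libraries. As a replicate block, number 1 alone gave 9 RUNX1 sites absent from CM +Dox and number 2 gave 5, with 1 called in CM +Dox and no other library in number 2. In the same block CHD7 had 2 and 1 absent from CM +Dox and 16 and 10 in CM +Dox and no other, with 15 in all libraries of number 2, and differences of -0.333 at Lyl1 in number 1 and -0.667 at Lmo2 in number 2. Permuted within the block, the Lyl1 RUNX1 difference of -5.33 had an exact p of 0.0625, the smallest possible. Read depth is unknown, so a site absent from a list may lie below its threshold.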
